A study of Mus musculus with 16 samples.

Results

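The 10 genes described here encode ligands of the TNF superfamily: Tnfsf11 (RANKL), Fasl (Fas ligand), Tnf, Lta, Ltb, Tnfsf4 (OX40 ligand), Tnfsf8 (CD30 ligand), Tnfsf10 (TRAIL), Tnfsf14 (LIGHT) and Cd40lg (CD40 ligand). They were chosen by name, with earlier results of these data known, and every probe set to which the platform annotation gives only that symbol was read. This gave 15 probe sets among the 34945 with a single symbol, and 10 genes among 18193. Of the 10 genes, 9 reached log2 6 on at least 2 arrays and were tested, as were 13007 genes in all. Cd40lg did not reach that minimum, with levels between log2 5.32 and 6.09 over the 16 arrays.

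Expression was measured on 16 Affymetrix arrays, in 8 groups of 2, from mouse CD4+ T cells sorted as naive (CD44- and CD62L+). STAT3-deficient cells carried floxed Stat3 alleles and CD4 Cre, a recombinase driven by the Cd4 gene's control elements, which acts in T lineage cells. WT cells carried the floxed alleles without Cre. All cells received antibodies to CD3 and CD28 for 3 days. The cultures held IL-6 (10 ug/ml) with TGFb (2.5 ug/ml), IL-6 alone, TGFb alone, or medium without added cytokine, at the doses and in the unit that the labels print. No group lacked the antibodies, so resting cells were not measured. The labels do not say what the replicates were. Xist and the Y-linked Eif2s3y read as female on every replicate 1 array and as male on every replicate 2 array, so the 2 arrays of a group did not come from 1 animal. Whether same-numbered arrays of different conditions shared an animal is not stated.

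TNF superfamily ligands are mostly membrane proteins that act as trimers on receptors of the TNF receptor superfamily, and some are shed from the cell. Receptors with a death domain can start apoptosis through FADD and caspase-8, and others recruit TRAF proteins and activate NF-kB. Activated CD4+ T cells are a known source of many of these ligands, through which they drive osteoclast formation (RANKL), kill or limit other T cells (Fas ligand) and give or receive co-stimulation (OX40, CD30 and LIGHT pathways). IL-6 signals through STAT3, and IL-6 with TGFb is the classical condition for differentiation of IL-17-producing T cells.

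The promoters of 5 ligands are printed here because Tnfsf11 and Fasl had the largest genotype changes over the arrays with IL-6, and because Ltb, Tnf and Lta lie next to each other on chromosome 17. Each is the 250 bases before the gene's start, 5′ to 3′ on the gene's strand, from RefSeq on build GRCm38.p6, where 8 of the 10 members matched. Capitals mark matches, on either strand, to the STAT motif TTCNNNGAA, the NFAT core GGAAAA, the AP-1 motif TGANTCA or the NF-kB consensus.
Tnfsf11, chr14:78308044-78308293, minus strand: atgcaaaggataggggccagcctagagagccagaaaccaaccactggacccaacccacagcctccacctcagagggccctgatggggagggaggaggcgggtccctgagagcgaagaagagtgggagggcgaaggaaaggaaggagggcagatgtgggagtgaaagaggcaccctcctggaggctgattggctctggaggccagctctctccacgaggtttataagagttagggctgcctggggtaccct
Fasl, chr1:161788496-161788745, minus strand: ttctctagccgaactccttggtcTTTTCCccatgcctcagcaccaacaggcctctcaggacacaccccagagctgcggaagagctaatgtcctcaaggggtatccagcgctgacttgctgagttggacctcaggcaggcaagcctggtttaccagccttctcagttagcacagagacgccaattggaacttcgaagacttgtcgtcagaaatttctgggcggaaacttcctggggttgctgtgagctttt
Tnf, chr17:35202008-35202257, minus strand: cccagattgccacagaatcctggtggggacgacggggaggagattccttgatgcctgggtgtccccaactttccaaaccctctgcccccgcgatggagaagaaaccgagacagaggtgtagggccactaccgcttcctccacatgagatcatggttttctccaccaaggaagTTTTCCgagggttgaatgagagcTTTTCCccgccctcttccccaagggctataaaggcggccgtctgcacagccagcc
Lta, chr17:35205352-35205601, minus strand: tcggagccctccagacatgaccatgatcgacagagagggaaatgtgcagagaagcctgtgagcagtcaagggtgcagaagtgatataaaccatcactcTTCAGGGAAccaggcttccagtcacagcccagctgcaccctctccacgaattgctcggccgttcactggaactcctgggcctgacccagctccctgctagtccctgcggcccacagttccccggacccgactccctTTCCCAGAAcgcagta
Ltb, chr17:35194257-35194506, plus strand: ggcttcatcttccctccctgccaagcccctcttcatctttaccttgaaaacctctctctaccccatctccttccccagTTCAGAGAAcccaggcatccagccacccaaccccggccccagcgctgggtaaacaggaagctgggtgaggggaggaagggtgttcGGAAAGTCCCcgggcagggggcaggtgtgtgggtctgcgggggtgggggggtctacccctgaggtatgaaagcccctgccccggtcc

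The STAT motif was found in Lta (TTCAGGGAA and TTCCCAGAA) and in Ltb (TTCAGAGAA), and not in the windows of Tnfsf11, Fasl, Tnf, Tnfsf8, Tnfsf10 or Tnfsf14. Of 32851 promoters of the same length, 7.02% held it. The NFAT core stood in Fasl at bases -227 to -222 and in Tnf at bases -78 to -73 and -55 to -50, and 20.4% of promoters held it. The NF-kB consensus was found in Ltb (3.9% of promoters) and the AP-1 motif in Tnfsf14 (6.75%), and neither of these matches overlapped another. A match describes letters in this window and is not a measured binding site.

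Some properties of the arrays bear on every result. Array medians lay between 66 and 73 intensity units. Stat3 itself read log2 8.4 to 10.46 on STAT3-deficient arrays, against 10.22 to 12.18 on WT arrays, and the 10.46 belonged to TGFb replicate 2. Stat3 fell in STAT3-deficient cells over the arrays with IL-6 (log2 8.97 against 11.88 in WT cells, limma adjusted p = 0.00288). Over the arrays without IL-6 it averaged log2 9.11, against 11.4 in WT cells, and did not pass (change -2.29, limma adjusted p = 0.64). Of the 8 measured T cell markers (of 10 listed), all but Trat1 read log2 9.64 or more on every array, with Cd3e at 10.36 to 11.77, and Trat1 ran from 5.75 to 9.71. None of the 6 measured B cell markers reached log2 8. The replicate numbers parted the arrays by sex-linked genes: replicate 1 arrays read Xist at log2 11.91 to 13.21, and replicate 2 arrays at 6.64 to 7.6, while Eif2s3y read 3.81 to 4.52 on replicate 1 arrays and 9.84 to 10.98 on replicate 2 arrays. Same-numbered arrays also deviated together, so values with the replicate number as a block are given where they change a call. The 2 STAT3-deficient TGFb arrays disagreed with each other over the tested genes (r = -0.29 after centring each gene), whereas the replicates of the other groups correlated at -0.1 to 0.7. As alternatives, replicate 1 of that group and replicate 1 of STAT3-deficient IL-6 with TGFb were exchanged, and also left out. The exchange moved the replicate correlation from -0.29 to -0.14 in STAT3-deficient TGFb. In STAT3-deficient IL-6 with TGFb it moved from 0.26 to 0.07. These values do not settle whether the labels were exchanged.

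RANKL, the cytokine that drives osteoclast formation, showed the largest genotype difference of the 9 tested ligands over the arrays with IL-6. Tnfsf11 (probe set 1419083_at) read log2 9.79 and 10.15 (replicate 1, then replicate 2, as in all that follows) in STAT3-deficient cells under IL-6 with TGFb, against 6.41 and 6.54 in WT cells. Under IL-6 alone it read 10.03 and 9.62 in STAT3-deficient cells, against 6.79 and 6 in WT cells. All 4 STAT3-deficient arrays thus lay above all 4 WT arrays. Under TGFb alone, levels were 9.25 and 9.68 in STAT3-deficient cells, against 9.89 and 9.54 in WT cells. In medium they were 10.54 and 9.62 in STAT3-deficient cells, against 10.42 and 9.55 in WT cells. Without IL-6 the genotypes overlapped, at the high level that STAT3-deficient cells also held with IL-6.

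**Figure D1:**
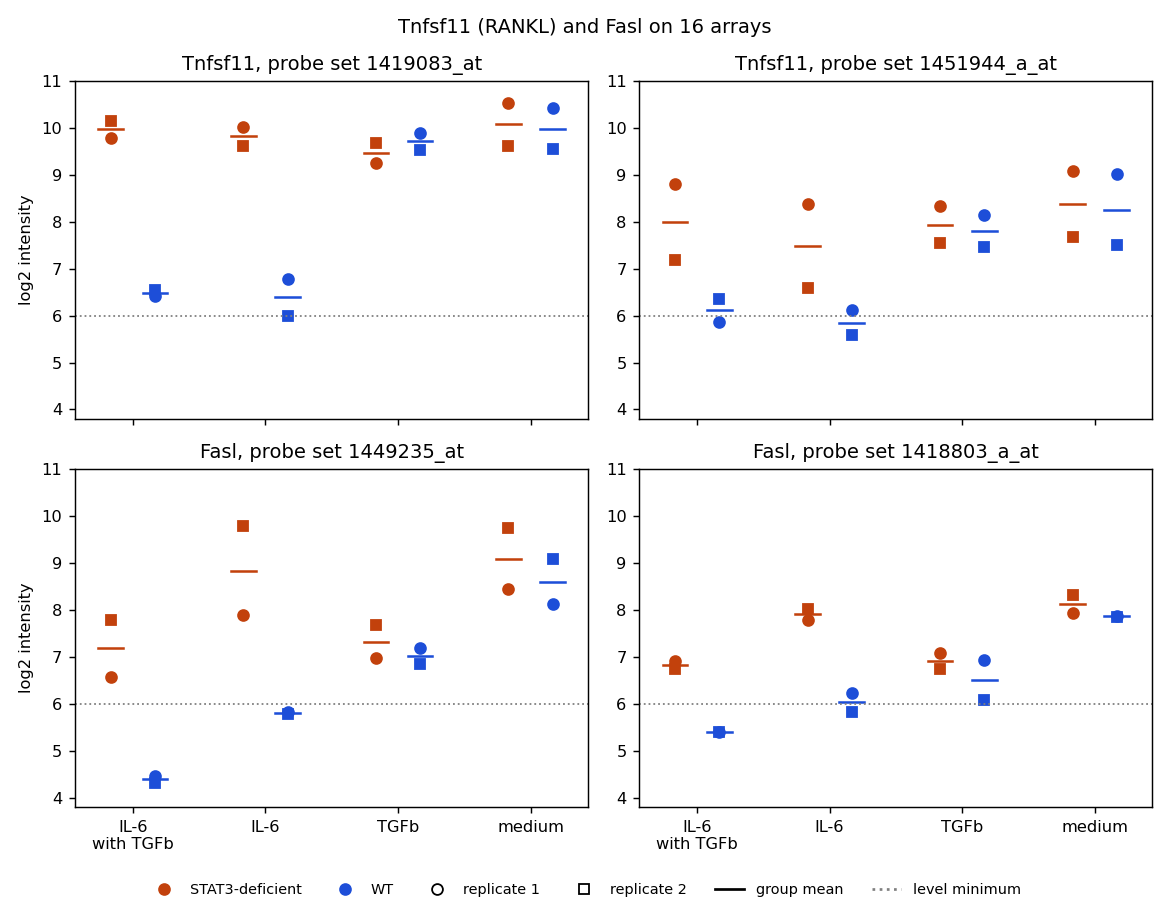
Log2 intensity of both probe sets of Tnfsf11 (top) and of Fasl (bottom) in the 4 culture conditions, STAT3-deficient cells left of WT cells. Points are single arrays (circle replicate 1, square replicate 2), bars are means of 2 arrays, and the dotted line is the level minimum of log2 6; the 4 WT arrays with IL-6 are the lowest in 3 of the 4 panels, and in the panel of 1418803_a_at WT TGFb replicate 2 (6.07) lies among them.

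Over the arrays with IL-6, Tnfsf11 averaged log2 9.9 ± 0.24 in STAT3-deficient cells and 6.44 ± 0.33 in WT cells (SD, n = 4 each). This was an 11-fold difference (log2 change 3.46, SE 0.27, limma adjusted p = 0.00016). It held within each condition, at 3.49 under IL-6 with TGFb (SE 0.38, adjusted p = 0.00168) and at 3.43 under IL-6 (SE 0.38, adjusted p = 0.00352). Over the arrays without IL-6 the change was -0.08 (SE 0.27, adjusted p = 1). The difference between these genotype effects, the interaction, was 3.54 (SE 0.38, adjusted p = 0.00573). Without the 2 arrays named above, the change over the arrays with IL-6 was 3.55 (adjusted p = 0.00281). With the 2 arrays exchanged the interaction was 3.27 (adjusted p = 0.0148), and without them it was 3.52 (adjusted p = 0.0488).

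Read across the cytokines, Tnfsf11 fell with IL-6 in WT cells. WT cells averaged log2 6.44 ± 0.33 with IL-6 and 9.85 ± 0.41 without it (SD, n = 4 each), a change of -3.42 (SE 0.27, adjusted p = 0.00019). STAT3-deficient cells averaged 9.9 ± 0.24 with IL-6 and 9.77 ± 0.54 without it, a change of 0.12 (SE 0.27, adjusted p = 0.994). Ordered by group mean, the 6 groups other than WT with IL-6 ran from 9.47 to 10.08 and lay within their replicate spread, and both WT groups with IL-6 stood apart at 6.47 and 6.4. The second probe set, 1451944_a_at, passed in no comparison when each probe set was tested on its own. Its genotype change over the arrays with IL-6 was 1.76 (adjusted p = 0.0718). Its IL-6 change in WT cells was -2.06 (adjusted p = 0.104).

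Fas ligand, which triggers apoptosis through the receptor Fas, had the same 4 low arrays. Under IL-6 with TGFb, Fasl (1449235_at) read log2 6.57 and 7.79 in STAT3-deficient cells, against 4.46 and 4.32 in WT cells. Under IL-6 it read 7.9 and 9.78 in STAT3-deficient cells, against 5.83 and 5.78 in WT cells. The genotypes did not overlap in either condition, and all 4 WT arrays with IL-6 lay under the log2 6 minimum, so that the size of the difference depends on the background there. Under TGFb the levels were 6.98 and 7.67 in STAT3-deficient cells, against 7.18 and 6.85 in WT cells. In medium they were 8.45 and 9.74 in STAT3-deficient cells, against 8.12 and 9.09 in WT cells. These conditions overlapped between the genotypes.

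Over the arrays with IL-6, Fasl averaged log2 8.01 ± 1.33 in STAT3-deficient cells and 5.1 ± 0.82 in WT cells (SD, n = 4 each), 7.52-fold apart (log2 change 2.91, SE 0.44, adjusted p = 0.00429). Without the 2 arrays named above it was 3.22 (adjusted p = 0.0105). With IL-6 as the sole cytokine the change was 3.03 (SE 0.62, adjusted p = 0.0275). That call was lost when STAT3-deficient IL-6 replicate 2 was left out (2.09, adjusted p = 0.109), and also without WT IL-6 replicate 1 (3.06, adjusted p = 0.0821) or replicate 2 (3.01, adjusted p = 0.0683). The change under IL-6 with TGFb was 2.79 (SE 0.62, adjusted p = 0.0647), which the replicate block brought past the threshold (adjusted p = 0.0115). The same held for the interaction of genotype with IL-6, at 2.51 (SE 0.62, adjusted p = 0.132 without the block and 0.0281 with it). Ordered by group mean, STAT3-deficient medium (9.09), STAT3-deficient IL-6 (8.84) and WT medium (8.61) came first and overlapped. STAT3-deficient TGFb (7.32), STAT3-deficient IL-6 with TGFb (7.18) and WT TGFb (7.01) followed and overlapped among themselves. WT IL-6 at 5.81 ± 0.04 and WT IL-6 with TGFb at 4.39 ± 0.1 (SD, n = 2 each) came last, and neither overlapped its neighbours. In WT cells Fasl fell with IL-6 by 2.71 on the log2 scale (SE 0.44, adjusted p = 0.0115), and lost this call without WT TGFb replicate 1 (adjusted p = 0.0553).

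The second Fasl probe set, 1418803_a_at, measures the same RNA and passed in more comparisons. Its levels were 7.79 and 8.03 under IL-6 and 6.91 and 6.75 under IL-6 with TGFb in STAT3-deficient cells, against 6.23 and 5.83, and 5.39 and 5.39, in WT cells. No WT array reached the lowest STAT3-deficient one, and 1 WT array lay above log2 6. Its genotype change was 1.66 over these arrays (adjusted p = 0.00152), 1.44 under IL-6 with TGFb (adjusted p = 0.0361) and 1.88 under IL-6 (adjusted p = 0.0156). Both probe sets agreed on the direction, while the log2 change of the second was the smaller one in each of these comparisons.

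The summed level of the 6 measured B cell markers (of 7 listed) moved along with Tnfsf11 and Fasl: it was log2 8.5 to 8.76 on STAT3-deficient arrays with IL-6, against 8.12 to 8.19 on WT arrays with IL-6. Every one of these markers stayed under log2 8 on every array, and Cd79a lay between log2 5.04 and 5.86. Among the other marker lists, the widest gaps between the genotypes with IL-6 were in NK, dendritic and stromal or endothelial cell markers, each in a single condition. Under IL-6 with TGFb the summed level of the 4 measured NK cell markers (of 6 listed) was log2 9.1 and 10.07 in STAT3-deficient cells, against 12.14 and 12.88 in WT cells. Of these markers only Klrd1 reached log2 8 on any array, and Ncr1 stayed between 5.21 and 5.81. Under IL-6 the sum of the 6 measured dendritic cell markers (of 7 listed) was 10.22 and 10.29 in STAT3-deficient cells, against 11.04 and 11.71 in WT cells. Of these only H2-Ab1 and Cd74 reached log2 8, and Itgax lay at 5 to 5.86. The sum of the 5 stromal and endothelial cell markers under IL-6 was 8.99 and 8.4 in STAT3-deficient cells, against 9.95 and 10.52 in WT cells. Of these only Pecam1 and Epcam reached log2 8, and Col1a1 lay at 4.64 to 5.29. The part of these marker differences in the ligand values was not tested. In a bulk sample, fewer cells that express a ligand cannot be told apart from less RNA per cell.

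A sign of RNA quality, the level of Actb control probe sets of the 5' end less that of the 3' end, also parted the genotypes among the replicate 2 arrays. There it was log2 -1.71 to -1.22 on the 4 STAT3-deficient arrays, against -1 to -0.88 on the 4 WT arrays, and the -1.71 belonged to the IL-6 array on which Fasl read 9.78. On replicate 1 arrays the genotypes overlapped in it, at -0.44 to -0.2 in STAT3-deficient cells, against -0.5 to -0.11 in WT cells. On these replicate 1 arrays with IL-6, Tnfsf11 read 9.79 and 10.03 in STAT3-deficient cells, against 6.41 and 6.79 in WT cells. Fasl read 6.57 and 7.9 there in STAT3-deficient cells, against 4.46 and 5.83 in WT cells. Both ligands were separate between the genotypes on these arrays, and the part of RNA quality in the ligand values was not tested.

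Of the 9 tested ligands, 3 rose in STAT3-deficient cells over the arrays with IL-6 and none fell, while 7.76% of all tested genes were called there (1.66% counting rises alone). Because the ligands were chosen with earlier results of these data known, such counts are descriptions only. With the replicate block 4 rose, the further one being Tnfsf10 (all genes 17.6%, and 4.78% counting rises alone). Under IL-6 with TGFb 1 ligand rose (all genes 1.19%, and 0.208% counting rises alone), and 4 rose with the block (all genes 2.48%, and 0.507% counting rises alone). Under IL-6 2 rose (all genes 3.29%, and 0.561% counting rises alone), and the same 2 with the block (all genes 11.5%, and 2.38% counting rises alone). In the interaction 1 passed (all genes 0.354%, and 0.0615% counting rises alone), and 2 with the block (all genes 1.86%, and 0.146% counting rises alone). The median change of the 9 was 0.76 over the arrays with IL-6 and 0.07 over those without, with a median over all genes of 0 and -0.01. No ligand passed under TGFb, in medium, or over both sets without IL-6, where limma called 0 of all genes (89, 17 and 38 at an unadjusted p under 0.05, and 0, 0 and 2, or 0.0154%, called with the replicate block). Stat3 itself, with a change of -2.29 over both sets without IL-6, was not called there (limma adjusted p = 0.64). The lack of calls without IL-6 thus does not show that the genotypes were alike.

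**Figure D2:**
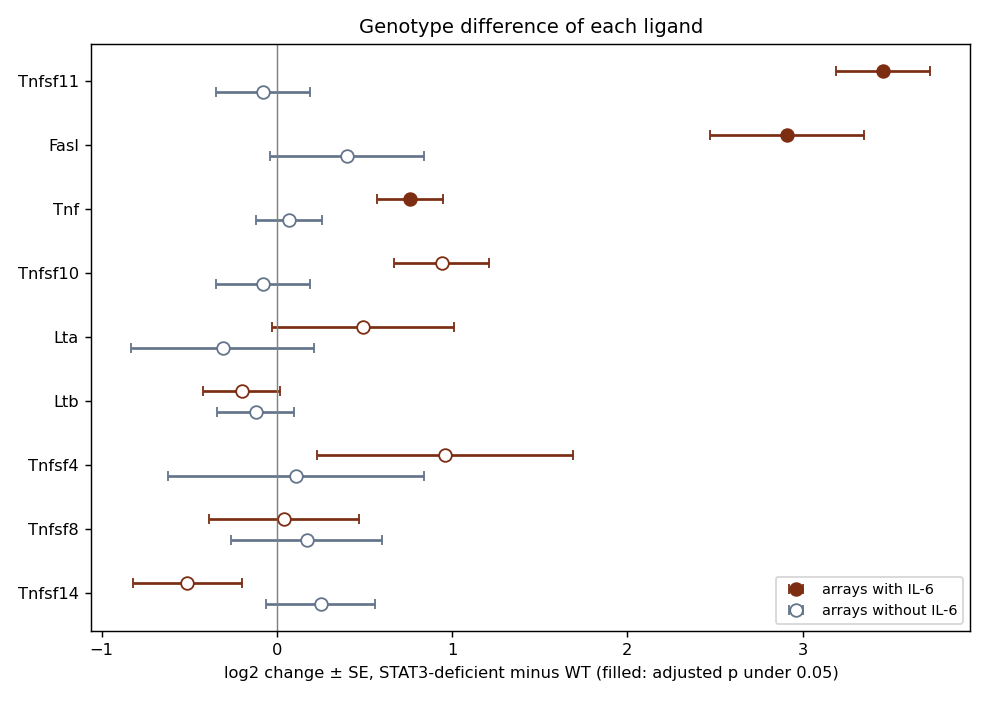
Log2 change between STAT3-deficient and WT cells for the 9 tested ligands, over the 8 arrays with IL-6 (dark) and the 8 without (grey), with the standard error of the limma fit. Filled points passed an adjusted p of 0.05, which Tnfsf11 (3.46), Fasl (2.91) and Tnf (0.76) did with IL-6 and no ligand did without it.

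Tnf, the inflammatory cytokine after which the family is named, differed by less. It read log2 8.95 and 8.61 in STAT3-deficient cells under IL-6 with TGFb, against 7.64 and 7.61 in WT cells. Under IL-6 it read 8.43 and 8.72 in STAT3-deficient cells, against 8.1 and 8.32 in WT cells. Without IL-6 it read 8.17 and 8.91 under TGFb and 8.37 and 8.73 in medium in STAT3-deficient cells, against 8.67 and 8.59, and 8.1 and 8.55, in WT cells. The WT arrays under IL-6 with TGFb were the lowest of all 16, and the other 14 lay between 8.1 and 8.95. Over the arrays with IL-6, Tnf averaged 8.68 ± 0.22 in STAT3-deficient cells and 7.92 ± 0.35 in WT cells (SD, n = 4 each), a change of 0.76 (SE 0.19, adjusted p = 0.0347). This call was lost with the 2 arrays exchanged (0.56, adjusted p = 0.0686), without them (0.67, adjusted p = 0.0678), and when any 1 of the 8 arrays with IL-6 except WT IL-6 replicate 2 was left out (0.67 to 0.84, adjusted p up to 0.126). Under IL-6 with TGFb the change of 1.15 did not pass without the replicate block (adjusted p = 0.0762) and passed with it (adjusted p = 0.0292).

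For TRAIL, a further death ligand, the genotypes separated under the combined cytokines, where the change did not pass in the fit without the replicate block. Tnfsf10 (1459913_at) read log2 9.25 and 8.81 in STAT3-deficient cells under IL-6 with TGFb, against 7.51 and 7.22 in WT cells. Under IL-6 the levels were 7.78 and 7.86 in STAT3-deficient cells, against 8.16 and 7.06 in WT cells. The genotypes were thus separate with both cytokines and overlapped with IL-6 alone. Under TGFb it read 8.55 and 9.42 in STAT3-deficient cells, against 9.43 and 8.89 in WT cells, and in medium 8.33 and 8.19, against 8.48 and 7.99 in WT cells. The change under IL-6 with TGFb was 1.66 (SE 0.38, adjusted p = 0.0716, and 0.0338 with the replicate block). Under IL-6 it was 0.22 (SE 0.38, adjusted p = 0.765). No test compared this change with that under IL-6 with TGFb. In WT cells the IL-6 change was -1.21 (SE 0.27, adjusted p = 0.0512, and 0.025 with the block). The probe set 1439680_at gave 1.73 under IL-6 with TGFb and 1420412_at gave 0.96, with adjusted p of 0.16 and 0.731. The NK cell marker sum given above parted the genotypes in this condition too, and its part in the values of Tnfsf10, Tnf and Fasl was not tested.

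The lymphotoxins, which build secondary lymphoid tissue through the lymphotoxin beta receptor, showed no genotype call. Lta, whose product also forms a soluble homotrimer that binds the TNF receptors, read log2 12.24 and 11.04 in STAT3-deficient cells under IL-6 with TGFb, against 10.83 and 10.08 in WT cells. Under TGFb it read 10.38 and 12.69 in STAT3-deficient cells, against 12.17 and 12.53 in WT cells. The wide gap within STAT3-deficient TGFb involves replicate 1, one of the 2 arrays named above. In the other conditions Lta ran from 9.66 to 11.15, with the genotypes overlapping in each. The change over the arrays with IL-6 was 0.49 (SE 0.52, adjusted p = 0.562). Ltb, the membrane-bound partner of Lta, lay between 11.96 and 13.2 on all 16 arrays, and its change over the arrays with IL-6 was -0.2 (SE 0.22, adjusted p = 0.57).

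The co-stimulatory ligands did not part by genotype over the arrays with IL-6 either. Tnfsf4, which engages OX40 on T cells, had a change of 0.96 (SE 0.73, adjusted p = 0.417). Its levels were log2 9.78 and 7.01 under IL-6 and 8.22 and 8.63 under IL-6 with TGFb in STAT3-deficient cells, against 7.88 and 7.37, and 7.32 and 7.25, in WT cells. Of the STAT3-deficient arrays, the one at 7.01 lay below the WT range and the other 3 above it. Tnfsf8, the ligand of CD30, had one of 0.04 (SE 0.43, adjusted p = 0.96). Tnfsf14, the ligand of HVEM and of the lymphotoxin beta receptor, had one of -0.51 (SE 0.31, adjusted p = 0.31). Under IL-6 alone, Tnfsf14 read 6.93 and 7.36 in STAT3-deficient cells, against 8.2 and 8.52 in WT cells, without overlap, but the change of -1.22 did not pass (SE 0.44, adjusted p = 0.143).

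**Figure D3:**
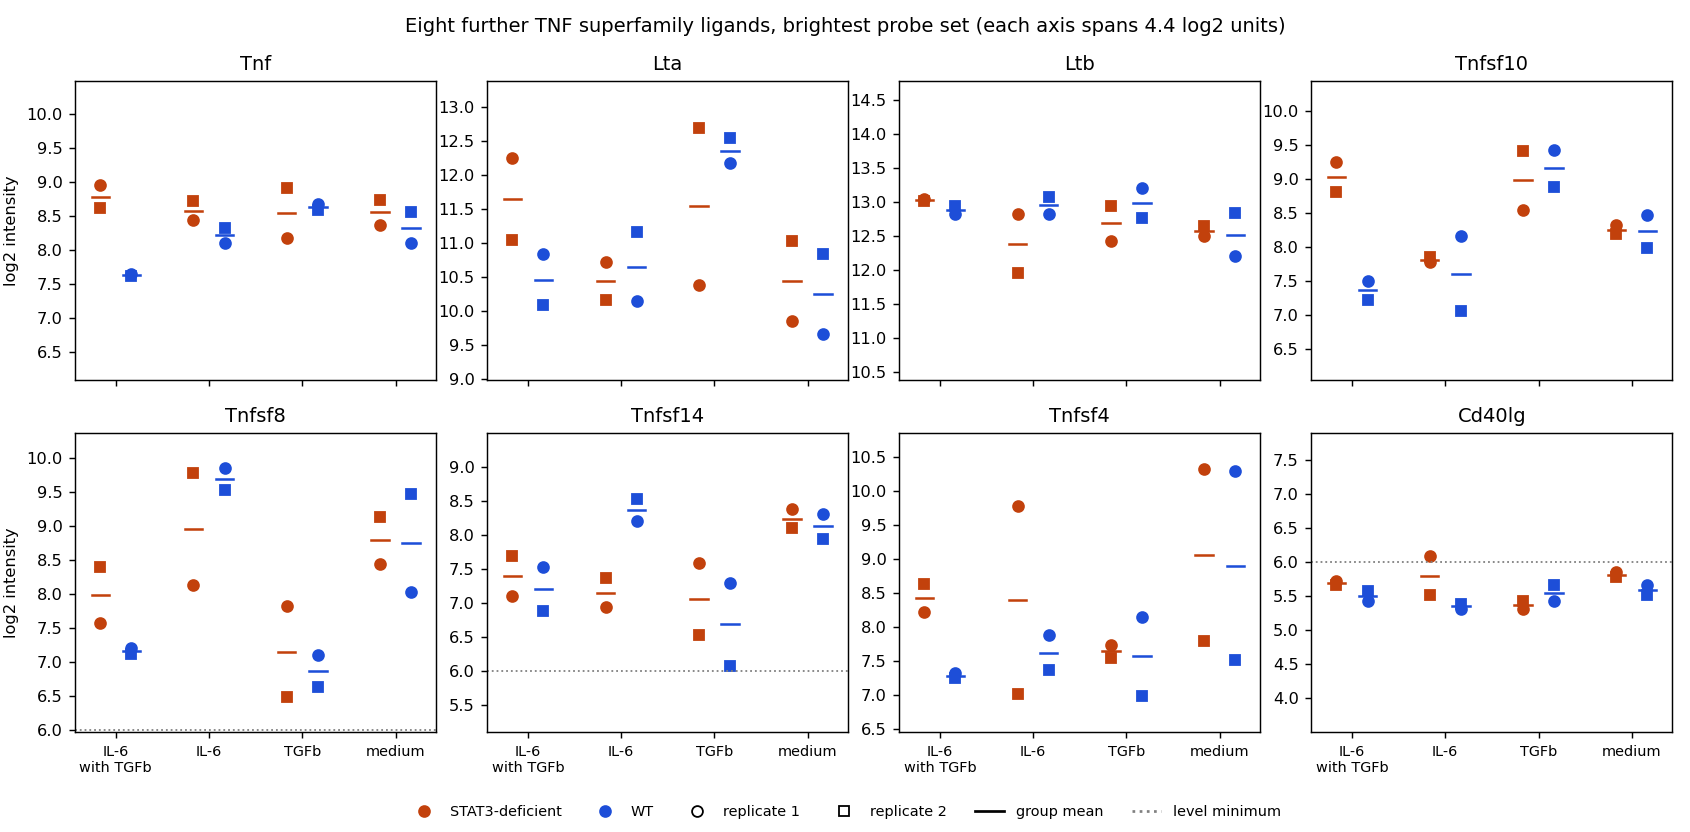
Log2 intensity of the brightest probe set of the other 8 ligands by culture condition, STAT3-deficient cells left of WT cells, with single arrays as points (circle replicate 1, square replicate 2) and means of 2 arrays as bars. Each axis starts at its own level but spans the same width, and Cd40lg stays at log2 5.32 to 6.09.

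Averaged over both genotypes, 3 ligands fell with TGFb: Tnfsf8, Fasl and Tnfsf14. In STAT3-deficient cells Tnfsf8 read log2 7.58 and 8.4 under IL-6 with TGFb, against 8.14 and 9.78 under IL-6, and 7.83 and 6.49 under TGFb, against 8.45 and 9.14 in medium. In WT cells it read 7.21 and 7.12 under IL-6 with TGFb, against 9.86 and 9.54 under IL-6, and 7.11 and 6.64 under TGFb, against 8.03 and 9.47 in medium. WT arrays with and without TGFb did not overlap, and of the STAT3-deficient arrays with TGFb the one at 8.4 reached the range without it. Tnfsf8 averaged 7.3 ± 0.62 with TGFb and 9.05 ± 0.74 without it (SD, n = 8 each), a fall of 3.37-fold (log2 change -1.75, SE 0.31, limma adjusted p = 0.00596).

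Fasl averaged log2 6.48 ± 1.35 with TGFb and 8.09 ± 1.57 without it (SD, n = 8 each), and fell by 1.61 (SE 0.31, adjusted p = 0.00965). Its lowest values, 4.46 and 4.32, were those of WT cells that had both cytokines. The change with TGFb was -1.72 in STAT3-deficient and -1.5 in WT cells (SE 0.44 each), and each of these passed with the replicate block (adjusted p = 0.0143 and 0.0365) and not without it (0.063 and 0.148). The second Fasl probe set fell in both genotypes without the block, by 1.15 in STAT3-deficient cells (adjusted p = 0.0164) and by 1 in WT cells (adjusted p = 0.0347).

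Tnfsf14 read log2 7.09 and 7.68 under IL-6 with TGFb, against 6.93 and 7.36 under IL-6, in STAT3-deficient cells, and 7.58 and 6.52 under TGFb, against 8.37 and 8.1 in medium. In WT cells it read 7.52 and 6.87 under IL-6 with TGFb, against 8.2 and 8.52 under IL-6, and 7.29 and 6.07 under TGFb, against 8.3 and 7.94 in medium. The WT arrays did not overlap, and the STAT3-deficient ones overlapped through IL-6. Tnfsf14 averaged log2 7.08 ± 0.56 with TGFb and 7.97 ± 0.55 without it (SD, n = 8 each), a change of -0.89 (SE 0.22, adjusted p = 0.0297). It was -1.31 in WT cells (SE 0.31, adjusted p = 0.0679, and 0.0366 with the replicate block). In STAT3-deficient cells it was -0.47 (SE 0.31, adjusted p = 0.489). Without the 2 arrays named above, the TGFb change was -0.95 for Tnfsf14 (adjusted p = 0.0366), -1.37 for Fasl (adjusted p = 0.0449) and -1.82 for Tnfsf8 (adjusted p = 0.0131). Tnfsf14 lost the call in 6 of the 16 fits that left out a single array, namely STAT3-deficient IL-6 with TGFb replicate 1 (-0.81, adjusted p = 0.0786), STAT3-deficient medium replicate 1 (-0.86), STAT3-deficient IL-6 replicate 2 (-0.84), WT medium replicate 1 (-0.84), WT IL-6 with TGFb replicate 2 (-0.81) and WT TGFb replicate 2 (-0.74). Its second probe set, 1421588_at, had a change of -0.57 and did not pass (adjusted p = 0.455).

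Of the 9 tested ligands 3 fell with TGFb over both genotypes and none rose, where 9.25% of all tested genes were called (3.79% counting falls alone). With the replicate block Tnfsf10 rose too (all genes 16.3%, and 9.12% counting rises alone). In STAT3-deficient cells no ligand passed (all genes 2.97%). With the replicate block 1 rose, Tnfsf10, and 1 fell, Fasl (all genes 6.76%). In WT cells 1 fell, Tnfsf8 (change -2.21, SE 0.43, adjusted p = 0.0282, all genes 1.71%, and 0.523% counting falls alone). In these cells 3 fell with the block (all genes 3.32%, and 1.11% counting falls alone). The call of Tnfsf8 in WT cells was lost without WT IL-6 replicate 1, WT IL-6 with TGFb replicate 1 or 2, WT TGFb replicate 1 or 2, or WT medium replicate 2 (changes of -2.32 to -1.85, adjusted p up to 0.131). No ligand passed in the interaction of genotype with TGFb, where limma called 0 genes (343 at an unadjusted p under 0.05, and 1, or 0.00769%, with the block). The largest of these differences among the ligands was that of Tnfsf8, at 0.9 (SE 0.61, adjusted p = 1).

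**Figure D4:**
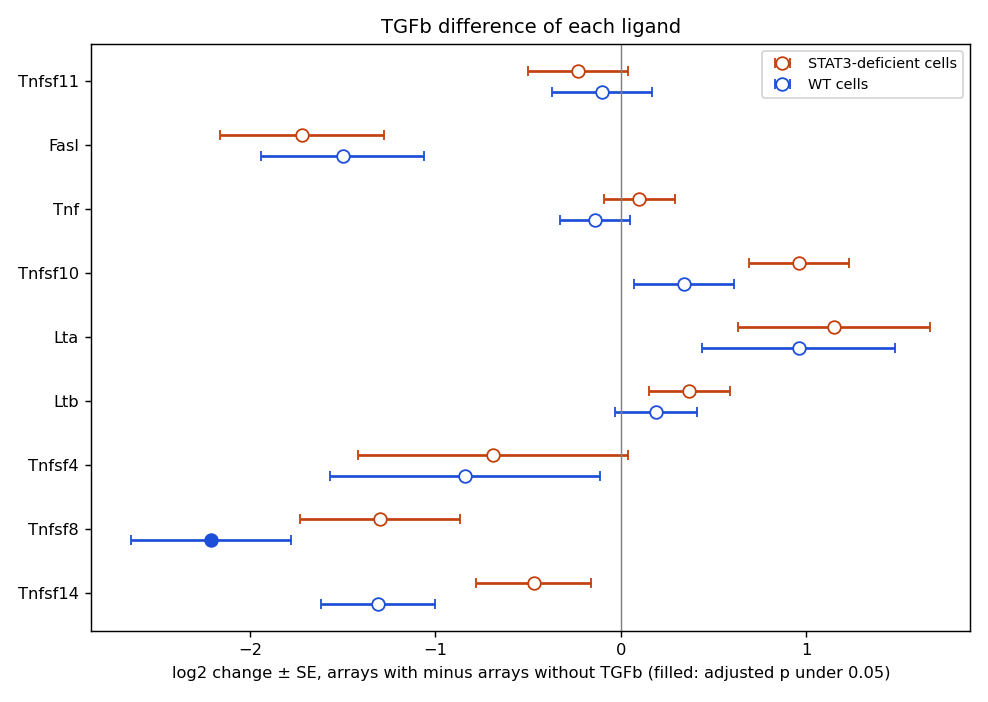
Log2 change between the arrays with and without TGFb for each tested ligand, in STAT3-deficient cells (above) and WT cells (below), with the standard error of the limma fit. The filled point, Tnfsf8 in WT cells at -2.21, passed an adjusted p of 0.05; Tnfsf8, Fasl, Tnfsf14, Tnfsf4 and, by a small amount, Tnfsf11 lie left of 0 in both genotypes.

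Lta and Tnfsf10 lay on the other side. Lta averaged log2 11.49 ± 1.03 with TGFb and 10.44 ± 0.56 without it (SD, n = 8 each), a change of 1.06 (SE 0.37, adjusted p = 0.0977). It passed with the 2 arrays exchanged (1.06, adjusted p = 0.0267), without both (1.19, adjusted p = 0.0468) and without STAT3-deficient TGFb replicate 1 alone (1.34, adjusted p = 0.0201). Tnfsf10 averaged 8.63 ± 0.85 with TGFb and 7.98 ± 0.44 without it, a change of 0.65 (SE 0.19, adjusted p = 0.0557, and 0.0287 with the block). The changes of Ltb, Tnf and Tnfsf11 were 0.28, -0.02 and -0.17, none of them past the threshold, and that of Tnfsf4 was -0.76 (SE 0.52, adjusted p = 0.416). Of the neighbours on chromosome 17, Tnf and Lta correlated at r = 0.61 over the 16 arrays, Lta and Ltb at 0.6, and Tnf and Ltb at 0.08.

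The summed level of the 4 measured NK cell markers (of 6 listed) moved with TGFb, at log2 7.43 to 12.88 on arrays with TGFb, against 6.95 to 8.01 without it. The 7.43 belonged to STAT3-deficient TGFb replicate 1, one of the 2 arrays named above, and the other arrays with TGFb read 9.06 or more. The sum moved through Klrd1, which reached log2 12.85, while Ncr1 stayed between 5.21 and 5.81 and the other measured markers stayed under log2 8. Its part in the ligand values was not tested.

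With IL-6, 2 of the 9 ligands fell in WT cells, Tnfsf11 and Fasl, and none rose (all genes 1.63%, and 0.308% counting falls alone). With the replicate block 3 fell, the further one being Tnfsf10 (all genes 3.37%, and 0.823% counting falls alone). In STAT3-deficient cells limma called 0 of all genes for IL-6 (578 at an unadjusted p under 0.05, and 0 with the block), and the changes of the 9 ligands lay between -0.38 and 0.5. The WT and genotype comparisons share the WT arrays with IL-6.

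Of 14 receptors and decoys of these ligands listed, 12 were tested, and 2 fell in STAT3-deficient cells over the arrays with IL-6: Tnfrsf22 and Tnfrsf23, mouse decoy receptors for TRAIL. None rose, and of all tested genes 6.1% fell and 1.66% rose there. Tnfrsf22 averaged log2 6.54 ± 0.15 in STAT3-deficient cells and 7.28 ± 0.39 in WT cells (SD, n = 4 each), a change of -0.74 (SE 0.19, adjusted p = 0.0381). Tnfrsf23 averaged 5.71 ± 0.01 in STAT3-deficient cells and 6.32 ± 0.36 in WT cells, a change of -0.61 (SE 0.14, adjusted p = 0.0228). Its STAT3-deficient level lay under the log2 6 minimum. The WT arrays with IL-6 were its highest, so it met the minimum for testing through the group called high. Its calls are therefore not independent of that filter. Both lost the call without the 2 arrays named above (adjusted p = 0.0779 and 0.0651). Both also rose with IL-6 in WT cells, by 0.91 and 0.75 (adjusted p = 0.0383 and 0.0206), with the same limit for Tnfrsf23. Fas, the receptor of Fas ligand, had a change of -0.65 between the genotypes (SE 0.34, adjusted p = 0.251), and Tnfrsf11a, which encodes RANK, lay at 5.86 to 6.61 on all arrays. The median change of the 12 was -0.05.

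With TGFb, 2 of the 12 receptors rose over both genotypes and 2 fell, where 5.46% of all tested genes rose and 3.79% fell. Cd40, the receptor of CD40 ligand, averaged log2 7.74 ± 0.29 with TGFb and 6.53 ± 0.22 without it (SD, n = 8 each), a change of 1.21 (SE 0.13, adjusted p = 0.00032), and the arrays did not overlap. Tnfrsf1b, which encodes TNF receptor 2, averaged 9.24 ± 0.44 with TGFb and 8 ± 0.35 without it, a change of 1.24 (SE 0.17, adjusted p = 0.00165). Btla, an inhibitory receptor that shares HVEM with LIGHT, averaged 10.64 ± 0.49 with TGFb and 12.06 ± 0.55 without it, a change of -1.42 (SE 0.25, adjusted p = 0.00597). Tnfrsf4, which encodes OX40, changed by -0.53 (SE 0.14, adjusted p = 0.0423) and lost the call without the 2 arrays (-0.41, adjusted p = 0.109). The median change of the 12 was 0.13.

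**Figure D5:**
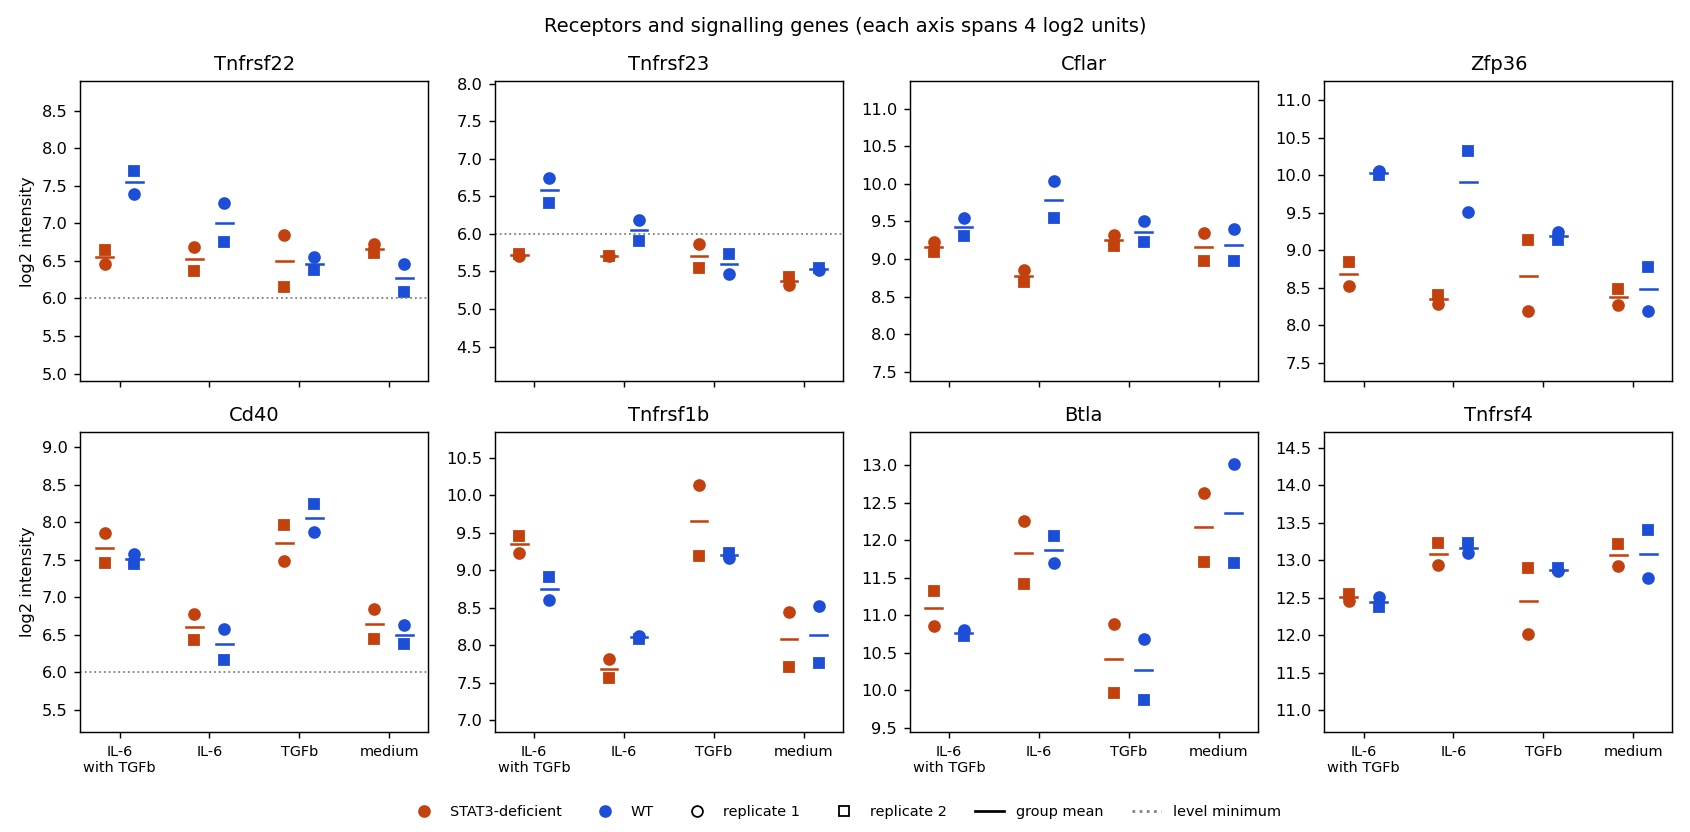
Log2 intensity by culture condition of 8 receptors and signalling genes, STAT3-deficient cells left of WT cells, with single arrays as points and means of 2 arrays as bars on axes of equal width. WT arrays with IL-6 are the highest for Zfp36 and Tnfrsf23, and arrays with TGFb are the highest for Cd40 and the lowest for Btla.

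Among 9 tested adaptors and death signalling genes (of 11 listed), 1 fell in STAT3-deficient cells over the arrays with IL-6 and none rose, a count near the 6.1% of all tested genes that fell. This was Cflar, which encodes c-FLIP, an inhibitor of caspase-8 at death receptors. It averaged log2 8.97 ± 0.23 in STAT3-deficient cells and 9.61 ± 0.31 in WT cells (SD, n = 4 each), a change of -0.64 (SE 0.17, adjusted p = 0.0391), and lost the call without the 2 arrays (adjusted p = 0.0961). Under IL-6 alone it read 8.86 and 8.7 in STAT3-deficient cells, against 10.04 and 9.54 in WT cells, a change of -1.01 (SE 0.23, adjusted p = 0.0419). With TGFb over both genotypes Traf5 and Traf6, adaptors of several of these receptors, rose by 0.61 (adjusted p = 0.028) and 0.78 (adjusted p = 0.0289), where 5.46% of all tested genes rose. Traf5 lost that call without the 2 arrays (adjusted p = 0.0836). The median change of the 9 was -0.25 between the genotypes over the arrays with IL-6 and 0.08 with TGFb.

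Of 12 listed factors and enzymes known to act on these ligands' transcription, RNA or shedding, 11 were tested, and over the arrays with IL-6 1 rose and 2 fell in STAT3-deficient cells (1.66% and 6.1% of all tested genes). Zfp36 encodes tristetraprolin, which binds AU-rich elements of the Tnf RNA and speeds its decay. It read log2 8.52 and 8.84 under IL-6 with TGFb and 8.29 and 8.41 under IL-6 in STAT3-deficient cells, against 10.06 and 10.01, and 9.51 and 10.32, in WT cells. The genotypes did not overlap, and the change was -1.46 (SE 0.24, adjusted p = 0.00605). In WT cells Zfp36 rose with IL-6 by 1.13 (SE 0.24, adjusted p = 0.037). Nfatc2, an NFAT factor that T cell receptor signals activate, changed by -1 (SE 0.22, adjusted p = 0.0211), and lost the call without the 2 arrays (-1.03, adjusted p = 0.0689). Egr3, an early growth response factor known to act on the Fasl promoter, averaged 10.28 ± 0.57 in STAT3-deficient cells and 8.86 ± 0.33 in WT cells (SD, n = 4 each), a change of 1.42 (SE 0.35, adjusted p = 0.0324). The median change of the 11 was 0.35. With TGFb over both genotypes none of the 11 passed without the replicate block (all genes 9.25%). With it 1 rose and 1 fell, where 9.12% of all tested genes rose and 7.22% fell. Of 8 further TNF superfamily ligands listed, Tnfsf9, Cd70, Tnfsf13b and Eda were tested, and none of these 4 passed in any of the 13 comparisons, with or without the block.

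Over the 16 arrays, Tnfsf11 and Fasl correlated at r = 0.78, and over the 12 arrays other than WT with IL-6 at 0.05, so that the likeness rested on the 4 WT arrays. The 5 genes whose levels were most like Tnfsf11 over the 16 arrays were Lad1 (r = 0.94), Asf1a, 1700019D03Rik, Fam111a and Mrpl13 (r = 0.91). Lad1 encodes ladinin, a protein of basement membranes, and averaged log2 5.91 on the WT arrays with IL-6 and 9.78 on the other 12 arrays. For Fasl the 5 were Slc7a1 (r = 0.94), a transporter of cationic amino acids, then Fh1, Cd83, Rpp30 and Cdk1 (r = 0.9 each). Their correlation with Fasl over the other 12 arrays was 0.79 to 0.93, against 0.5 to 0.81 for the 5 genes with Tnfsf11. Among the ligands Tnfsf8 and Tnfsf14 followed at r = 0.72. These correlations are descriptions over arrays that share groups and replicate numbers.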

How the data were processed

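The deposited values were 1 intensity per probe set and array, on a linear scale. RMA is the summary method that the submitters' processing notes name for the authors' table; its version is not given in the sources used here, nor how the values became whole linear numbers (6 to 37243). Total RNA had been biotin-labelled, per the labels' protocols. Log2 was taken with no pseudocount and no further normalization was applied. The number of arrays limits the precision.

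Each gene was represented by the single-symbol probe set with the highest mean. Of 45101 probe sets, 64 controls, 932 with several symbols and 9160 with none were left out. Genes reaching log2 6 on at least 2 arrays were tested (13007, with 5186 set aside). All 16 arrays entered 1 limma fit (version 3.58.1, R 4.3.3, the data.table package at 1.17.8) with 8 group means, 13 comparisons by lmFit, contrasts.fit and eBayes, two-sided, 8 residual degrees of freedom, Benjamini-Hochberg adjusted over all tested genes per comparison, and called at an adjusted p under 0.05. The fit was tested on simulated data with independent noise on each array. That test does not cover the shared deviations of same-numbered arrays. Probe sets of the members were also tested in a fit of every single-symbol probe set; values of second probe sets come from it. Summed marker levels are log2 of summed intensities. Figures used matplotlib 3.10.9 (Python 3.11.15).

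The members, pathway lists and alternatives were chosen with earlier results of these data known. Named were all members in every comparison, the listed pathway genes past the threshold, and the 5 genes most like Tnfsf11 and Fasl by Pearson correlation; Fas, Tnfrsf11a and Cd70 were added after their values were seen.

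Replicate numbers come from the titles, and what they stand for is not stated. Over 28 pairs of groups, deviations of same-numbered arrays correlated at 0.11 to 0.86 (median 0.33), all above 0.1, so the numbers pair the samples and a fit with a replicate block was the main alternative. Standard errors and calls given without mention of the block come from the fit that leaves this pairing out. A lack of a call in that fit is therefore not a lack of a difference. Others were a further quantile normalization, array weights, log2 7 or no minimum, 16 added before log2, every probe set, the compared arrays only, each array left out, and 2 STAT3-deficient arrays exchanged or left out.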

Additional observations from a re-analysis of the deposited data

Results flagged for a closer look

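The genotype difference of Tnfsf11 itself differed between the arrays with and without IL-6, by the test of the interaction. The genotype change was 3.46 on the log2 scale with IL-6 and -0.08 without it, and the interaction was 3.54 (SE 0.38, limma adjusted p = 0.00573), in a comparison where 0.354% of all tested genes passed. It ran from 3.27 to 3.77 over the 25 alternatives run for it, single arrays left out included. It passed in each alternative that kept 2 arrays in every group. All of these values are of the brighter probe set of the gene. The second probe set, tested on its own, gave a smaller interaction of 1.64 and did not pass (SE 0.74, limma adjusted p = 0.455). The call thus holds for the brighter probe set only.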

How the results depend on the processing

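Of 13 called values of the ligands, 8 kept the call in every alternative, 5 lost it in at least 1, and 0 reversed. The 5 were Fasl under IL-6 and with IL-6 in WT cells, Tnf over the arrays with IL-6, Tnfsf8 with TGFb in WT cells and Tnfsf14 with TGFb over both genotypes. Fasl under IL-6 was also lost with array weights (adjusted p = 0.104) and in a fit of the 4 compared arrays (adjusted p = 0.093). Of 104 values that did not pass, 12 passed in at least 1 alternative and 54 turned sign in at least 1; values of a size near their standard error have no settled direction.

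The number of ligands called depended on the setting as follows. Under IL-6 with TGFb 1 ligand differed between the genotypes, and 4 did with quantile normalization, with the replicate block, with array weights and in a fit of the 4 compared arrays. Under IL-6 it was 2, and 1 with array weights and with the 4 compared arrays. With the paired fit, that is the replicate block, the interaction of genotype with IL-6 had 2 in place of 1, TGFb in WT cells 3 in place of 1 and TGFb in STAT3-deficient cells 2 in place of 0 (1 with quantile normalization). With the 2 arrays exchanged, TGFb in WT cells had 2 (all genes 1.89%) and TGFb over both genotypes 5 in place of 3 (all genes 8.85%). Leaving out single arrays gave 1 to 2 under IL-6, 2 to 3 over the arrays with IL-6, 1 to 3 for IL-6 in WT cells, 0 to 1 for TGFb in WT cells, 0 to 1 for TGFb in STAT3-deficient cells and 2 to 5 for TGFb over both genotypes. The cause was not tested. Shares of all tested genes with the replicate block are given above. For the other settings no such share is given here, so their counts are descriptions of the settings and not results about the ligands.

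With 2 arrays per group, values rest on a spread shared by all groups. Levels under log2 6 (Fasl in WT cells with IL-6, Cd40lg) depend on the background.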

Other observations

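Tnfsf4 and Cd70, a TNF superfamily ligand that is not among the 10, shared a gap between the replicates in medium. In medium, Tnfsf4 read log2 10.32 on replicate 1 and 7.8 on replicate 2 of STAT3-deficient cells, and 10.29 and 7.52 on those of WT cells. Cd70 read 8.77 and 5.04 in STAT3-deficient cells, and 8.6 and 5.49 in WT cells. In both genotypes the replicate 1 array was thus the high one in medium. Tnfsf4 also read 9.78 and 7.01 under IL-6 in STAT3-deficient cells. Its remaining replicate 1 arrays, with TGFb or of WT cells with IL-6, lay between 7.32 and 8.22, so the pattern differed between the culture conditions. Over the 8 groups Tnfsf4 was higher on replicate 2 in 1, with differences between replicate 2 and replicate 1 of -2.77 to 0.41. Replicate 1 arrays also differed from replicate 2 arrays in Xist and in how far Actb control probe sets of the 5' end lay from those of the 3' end (log2 -0.5 to -0.11, against -1.71 to -0.88), and the part of these in the pattern was not tested.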
